A study of Sus scrofa with 12 samples.

Results

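The let-7 and miR-98 family was described in testis small RNA of Hezuo (HZ) and Landrace (LC) boars. Its members were the rows of the table of all miRNAs (existing, known and predicted) whose name is let-7, with or without a letter, or miR-98, with or without the pig prefix and an arm suffix. The rule matched 16 of the 1452 listed miRNAs: 11 carry a pig name (prefix ssc, called exist miRNAs by the study), and 5 are known miRNAs named without a species. All 16 had counts in all 12 libraries. The libraries came from 30-day-old HZ boars (Ha), 120-day-old HZ boars (Hb), 30-day-old LC boars (La) and 120-day-old LC boars (Lb), with 3 libraries in each group and no treatment. The methods give 3 boars per breed and age, beside 3 libraries per group here, and describe RNA extraction from pooled samples, without stating how boars map to libraries. Every SD and p-value below measures the spread between libraries.

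The let-7 miRNAs are cut by Drosha and Dicer from hairpin precursors, and the mature strand, loaded into an Argonaute protein, pairs through its seed (bases 2 to 8) with sites in mRNAs and lowers their output. Most 5p strands of the family share the seed and differ at bases outside it. The RNA-binding protein LIN28 blocks the maturation of let-7 precursors in stem and germline cells, and mature let-7 is known for accumulating as tissues differentiate. Known let-7 targets include HMGA2, the RAS genes and LIN28 itself.

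The 5p members follow from 5′ to 3′ in DNA letters, as they are listed with the counts, because their one-base differences decide which tags are counted for which member. Capitals mark the seed.
ssc-let-7a: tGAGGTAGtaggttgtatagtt
ssc-let-7f-5p: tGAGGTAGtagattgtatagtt
ssc-let-7c: tGAGGTAGtaggttgtatggtt
ssc-let-7e: tGAGGTAGgaggttgtatagtt
ssc-let-7g: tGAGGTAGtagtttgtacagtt
ssc-let-7d-5p: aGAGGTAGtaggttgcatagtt
ssc-miR-98: tGAGGTAGtaagttgtattgtt
miR-98-x: cTGAGGTAgtaagttgtattgtt
ssc-let-7i-5p: tGAGGTAGtagtttgtgct
let-7-x: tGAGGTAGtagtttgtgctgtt
let-7-z: tGAGGTAGtagtttgtgctgttat

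The seed GAGGTAG was shared by 10 of the 16 members. Counting positions from 1 at the 5′ end and giving the base of ssc-let-7a first, ssc-let-7f-5p differed from ssc-let-7a by G12A, ssc-let-7c by A19G and ssc-let-7e by T9G, which are single substitutions. The remaining members differed at more positions: ssc-let-7g by G12T and T18C, ssc-let-7d-5p by T1A and T16C, and ssc-miR-98 by G11A and A19T. The 3 rows ssc-let-7i-5p, let-7-x and let-7-z carried the same 4 substitutions (G12T, A17G, T18C and A19T) and differed in length alone, at 19, 22 and 24 bases. The row miR-98-x was ssc-miR-98 with 1 more base at the 5′ end, which moves the seed window to TGAGGTA. The 5 members of the 3p arm had other seeds, which were TATACAA in ssc-let-7f-3p and miR-98-y, TATACAG in let-7-y, TATACGA in ssc-let-7d-3p and TGCGCAA in ssc-let-7i-3p. How many mismatches the match to miRBase allowed is not given in the sources used here, so the exchange of tags between members that differ by 1 base was not tested.

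The hairpins were placed by name in the RefSeq gene table of Sscrofa11.1, the build the study used. MIRLET7A-2 (chromosome 3, 43465667 to 43465758), MIRLET7F-2 (43466034 to 43466130) and MIRLET7D (43468501 to 43468596) lay within 2930 bases of each other and in no annotated gene. MIRLET7E (chromosome 6, 58332042 to 58332121) lay between MIR125A and MIR99B, the 3 spanning 715 bases, and MIRLET7C (chromosome 13, 181303209 to 181303302) lay beside MIR99A inside the bounds of LOC106508546. MIRLET7A-1 (chromosome 9, 49152586 to 49152665) lay between MIR125B-1 and MIR100. MIR98 (chromosome X, 46302381 to 46302460) and MIRLET7F-1 (46303245 to 46303327) lay inside the bounds of HUWE1, a ubiquitin ligase gene, and MIRLET7G (chromosome 13, 34406140 to 34406219) lay inside those of WDR82. MIRLET7I (chromosome 5, 27252802 to 27252886) lay in no annotated gene. Bounds of genes were compared, not exons. Since ssc-let-7a and ssc-let-7f-5p each have 2 hairpins in this table, their tags cannot be assigned to 1 of them.

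The listed counts summed to between 6520197 and 16874633 per library, and the deposited TPM divides a count by a total for the library and not by length. The range of counts per library was 244596 to 743606 for ssc-let-7a and 6 to 39 for ssc-let-7f-3p, so the least abundant member is the least precise. Tags carry no molecular identifiers. In Hb, replicate 2 stood apart from the other libraries with a TMM factor of 0.694 (range of the 12 libraries, 0.694 to 1.20) and the lowest family sum in TPM (after TMM scaling its sum was the highest in Hb), and the family sum and the arm balances of let-7d and miR-98 are also given without it. In the fit without it, 4 members were called in Ha vs. Hb, all lower. The gonadal miR-202 (5 rows, all counted in all 12 libraries) summed to between 9608 and 24405 TPM in the 12 libraries.

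The family spanned more than 4 orders of magnitude in every group. By the mean TPM over the 12 libraries, ssc-let-7a (39948) and ssc-let-7f-5p (34400) ranked 6 and 9 among all listed miRNAs. They were followed by ssc-let-7g (10925), let-7-x (8397), ssc-let-7c (6431), ssc-let-7e (2157), ssc-let-7d-5p (1199), ssc-let-7i-5p (980.2) and ssc-miR-98 (610.1). The 3p rows and the long forms were below 200 TPM, from let-7-y (183.8) to ssc-let-7f-3p (1.65). This order was nearly the same in each library: of the 15 pairs of neighbours, 11 stood in this order in all 12 libraries. The exceptions were ssc-let-7a above ssc-let-7f-5p (9 of 12 libraries), ssc-let-7d-5p above ssc-let-7i-5p (10 of 12), ssc-let-7d-3p above let-7-z (10 of 12) and miR-98-y above miR-98-x (11 of 12), and these neighbours held no single order across the libraries.

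**Figure D1:**
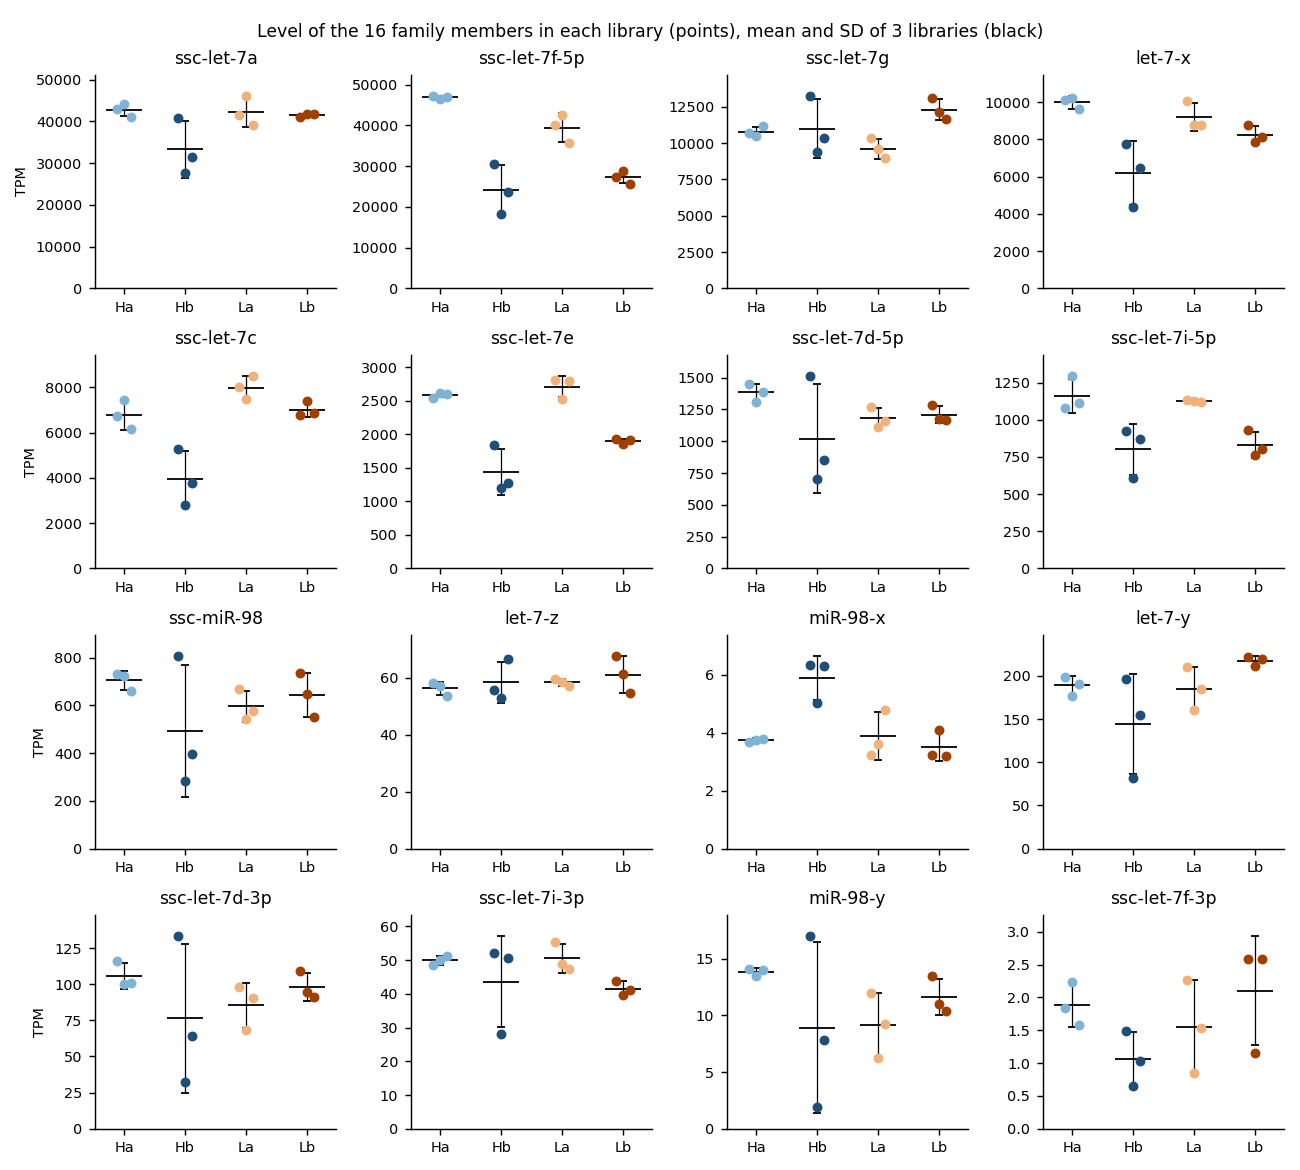
TPM (linear axis from 0, a scale of its own in each panel) of the 16 members in Ha, Hb, La and Lb. Points are libraries, and black lines give the mean and SD of 3 libraries. The points of ssc-let-7f-5p and ssc-let-7e at 120 days lie below those at 30 days in both breeds, and Hb shows the widest spread in most panels.

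The summed level of the family was lower at 120 days than at 30 days in both breeds. It was 123879, 125117 and 121226 TPM in Ha and 103028, 65248 and 79351 TPM in Hb. It was 116361, 120103 and 107052 TPM in La and 102422, 102683 and 98864 TPM in Lb. In neither breed did the ages overlap, and the spread in Hb (82542 ± 19091 TPM, SD, n = 3) was wider than in Ha (123407 ± 1988), La (114505 ± 6720) or Lb (101323 ± 2134). After TMM scaling the spread in Hb was near that in Ha, narrower than in La and wider than in Lb. The sums were 99379 ± 5551 CPM in Hb, beside an SD of 5365 in Ha, 9964 in La and 2959 in Lb. Without replicate 2, the Hb mean was 91189 TPM, which is 0.739 of the Ha mean. With it, the Hb mean was 0.669 ± 0.155 of the Ha mean and the Lb mean 0.885 ± 0.055 of the La mean. Scaled by TMM, these ratios were 0.719 and 0.751. Between breeds, the La mean was 0.928 ± 0.056 of the Ha mean in TPM and 0.988 of it after TMM scaling, and the Lb mean was 1.23 ± 0.285 times the Hb mean in TPM (1.11 times without Hb replicate 2) and 1.03 times after TMM scaling. These sums are descriptions and were not tested. The ± of a ratio of group means is propagated from the SDs of both groups and is not a spread between libraries.

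As a share of all listed counts, the family made up 13.9% ± 0.297 (SD, n = 3) of the Ha libraries and 9.39% ± 2.22 of the Hb libraries, 12.8% ± 0.722 of the La libraries and 11.6% ± 0.241 of the Lb libraries. Nearly all of it came from 5 members: ssc-let-7a, ssc-let-7f-5p, ssc-let-7g, let-7-x and ssc-let-7c held from 94.7% to 95.1% of the family in the group means. Within the family, the share of ssc-let-7f-5p was 38.0% ± 0.813 in Ha and 29.0% ± 1.03 in Hb, and 34.4% ± 1.08 in La and 26.9% ± 0.991 in Lb. The share of ssc-let-7g went the other way, from 8.74% ± 0.427 to 13.4% ± 0.838 in HZ boars and from 8.41% ± 0.457 to 12.1% ± 0.572 in LC boars. The 5p rows made up nearly the whole sum, and the 3p rows together had 343.1 to 379.4 TPM in Ha and 144.6 to 399.9 TPM in Hb, with 284.2 to 378.4 TPM in La and 357.0 to 390.6 TPM in Lb.

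**Figure D2:**
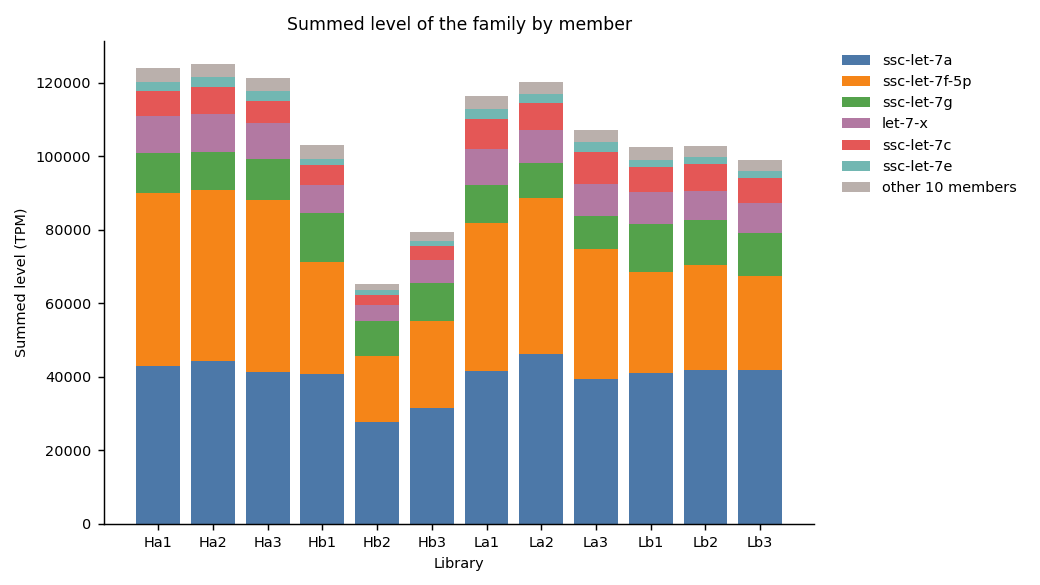
Summed TPM of the family (bars from 0) in each of the 12 libraries, split into the 6 most abundant members and the other 10. The sum is lowest in Hb replicate 2 (65248 TPM), and the ssc-let-7f-5p segment is smaller at 120 days than at 30 days in both breeds.

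The age comparison in HZ boars (Ha vs. Hb) asked which members differed between 30 and 120 days. Of the 16 members, 4 fell with an adjusted p under 0.05 in edgeR's quasi-likelihood test (Benjamini-Hochberg adjustment over all 1441 miRNAs tested), and none rose. Among all miRNAs tested, 34.3% were called, 13.0% lower and 21.3% higher, but these include many rows with few counts. With filterByExpr, which drops such rows and kept all 16 members, 380 of 761 miRNAs were called, 170 of them lower. In that fit 4 members were called lower and 1 higher. By the rule of the study's methods (a log2 fold change beyond 1 in size with an unadjusted p under 0.05) no member was called, against 39.6% of all miRNAs. With 5 members at an unadjusted p under 0.05, DESeq2 called 4 at the adjusted threshold.

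ssc-let-7f-5p had 47136, 46521 and 47044 TPM in Ha and 30426, 18159 and 23554 TPM in Hb. Every Hb library was below every Ha library, and in Ha vs. Hb the log2 fold change was -0.87 (SE 0.206, adjusted p = 0.00538), a level 0.548 of that at 30 days. ssc-let-7e had 2543, 2612 and 2595 TPM in Ha and 1840, 1205 and 1271 TPM in Hb, with a log2 fold change of -0.74 (SE 0.229, adjusted p = 0.0244). These ages did not overlap either. ssc-let-7c had 6740, 7422 and 6141 TPM in Ha and 5272, 2804 and 3793 TPM in Hb (log2 fold change -0.69, SE 0.223, adjusted p = 0.0275). let-7-x, the full-length let-7i strand, had 10125, 10238 and 9601 TPM in Ha and 7726, 4340 and 6451 TPM in Hb (log2 fold change -0.61, SE 0.215, adjusted p = 0.0430). Both fell with no overlap between the ages in Ha vs. Hb. In TPM, Hb replicate 2 was the lowest library for each of these 4, but on the TMM scale of the test it was the lowest in Hb for let-7-x and the highest in Hb for ssc-let-7f-5p and ssc-let-7e. Leaving it out kept the 4 calls, with an adjusted p for ssc-let-7f-5p of 2.36e-05. The count of 4 was less stable to other libraries: it was 0 without Ha replicate 1, where the adjusted p of ssc-let-7f-5p was 0.121, 1 without Ha replicate 2, Ha replicate 3 or Hb replicate 3, and 6 without Hb replicate 1. Those 6 lacked ssc-let-7e (adjusted p = 0.0554) and let-7-x (adjusted p = 0.103) and held 5 falling members and miR-98-x, which rose (log2 fold change 1.01, adjusted p = 0.0295). With RLE normalization ssc-let-7f-5p alone was called, and with scaling by library size ssc-let-7f-5p and ssc-let-7e were.

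The other 12 members did not pass the test in Ha vs. Hb. ssc-let-7a, the most abundant, had 42908, 44134 and 41120 TPM in Ha and 40805, 27559 and 31483 TPM in Hb. These TPM did not overlap, but after TMM scaling the log2 fold change was -0.25 (SE 0.210, adjusted p = 0.376). ssc-let-7g had 10723, 10460 and 11154 TPM in Ha and 13253, 9388 and 10334 TPM in Hb, which overlapped (log2 fold change 0.15, adjusted p = 0.615). Of the 16 log2 fold changes in Ha vs. Hb, 13 were negative, with a median of -0.45 beside a median of 0.32 over all miRNAs tested. With filterByExpr, which drops rows with few counts, the medians were -0.40 for the members and 0.05 for all miRNAs kept. The positive values belonged to ssc-let-7g, let-7-z (0.21, adjusted p = 0.602) and miR-98-x (0.78, adjusted p = 0.105). miR-98-x was called higher with filterByExpr (0.84, adjusted p = 0.0411; 5 members called) and in the fit of all 12 libraries (0.78, adjusted p = 0.0426; 6 members called), and its adjusted p ranged from 0.0295 to 0.291 over the alternatives. In TPM, 7 members were lower in Hb without overlap, where 30.1% of miRNAs averaging at least 1 TPM were, and 1 was higher, where 25.7% were.

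The age comparison in LC boars (La vs. Lb) gave 6 members that fell and none that rose, of 16. Among the 1446 miRNAs tested, 40.2% were called, 13.4% lower and 26.8% higher. With filterByExpr, 436 of 805 miRNAs were called, 175 of them lower, and 6 members were called, all lower. By the rule of the study's methods no member was called in La vs. Lb, against 32.1% of all miRNAs, while DESeq2 called the same number, 6. ssc-let-7f-5p had 40111, 42516 and 35583 TPM in La and 27385, 28689 and 25678 TPM in Lb, with a log2 fold change of -0.71 (SE 0.0995, adjusted p = 0.000108). ssc-let-7e had 2814, 2532 and 2788 TPM in La and 1922, 1857 and 1908 TPM in Lb, with a log2 fold change of -0.70 (SE 0.0962, adjusted p = 9.40e-05). ssc-let-7i-5p had 1135, 1129 and 1121 TPM in La and 929, 761 and 806 TPM in Lb, with a log2 fold change of -0.62 (SE 0.0971, adjusted p = 0.000249). For these 3 members the ages did not overlap, the level at 120 days was 0.612, 0.617 and 0.649 of that at 30 days, and the call stood under all 13 alternatives tried.

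The other 3 members called in La vs. Lb moved less. let-7-x had 10049, 8781 and 8766 TPM in La and 8741, 7842 and 8109 TPM in Lb (log2 fold change -0.34, adjusted p = 0.00862). ssc-let-7c had 7992, 7461 and 8489 TPM in La and 6790, 7387 and 6877 TPM in Lb (log2 fold change -0.36, adjusted p = 0.0158). The 3p strand ssc-let-7i-3p had 55.3, 48.9 and 47.2 TPM in La and 44.0, 39.5 and 41.2 TPM in Lb (log2 fold change -0.46, adjusted p = 0.0188). The ages did not overlap for these 3, but none was called when the libraries were scaled by library size in place of TMM, which moved the median log2 fold change of all miRNAs in La vs. Lb from 0.32 to 0.54. ssc-let-7c was also not called without La replicate 3 (range of adjusted p over the alternatives, 0.00187 to 0.216), and ssc-let-7i-3p was not called without La replicate 1, La replicate 3 or Lb replicate 1 (0.00297 to 0.223).

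ssc-let-7a and ssc-let-7g did not pass the test in La vs. Lb. ssc-let-7a had 41543, 46109 and 39204 TPM in La and 41062, 41757 and 41694 TPM in Lb, which overlapped (log2 fold change -0.20, SE 0.0956, adjusted p = 0.111; 0.01 when scaled by library size). It was called lower without Lb replicate 2 (-0.31, adjusted p = 0.0341), as the 7th member called there. ssc-let-7g had 10337, 9573 and 8970 TPM in La and 13108, 12148 and 11651 TPM in Lb. Every Lb library was above every La library in TPM, but the log2 fold change was 0.17 (SE 0.0882, adjusted p = 0.139) after TMM scaling and 0.39 (adjusted p = 0.00522) when scaled by library size. The remaining 8 members in La vs. Lb had log2 fold changes from -0.34 (miR-98-x) to 0.26 (ssc-let-7f-3p). The median of the 16 was -0.18, beside 0.32 over all miRNAs tested, and 11 were negative. With filterByExpr the medians were -0.16 for the members and 0.08 for all miRNAs kept. In TPM, 6 members were lower in Lb without overlap (21.9% of miRNAs averaging at least 1 TPM) and 2 were higher (40.6%).

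**Figure D3:**
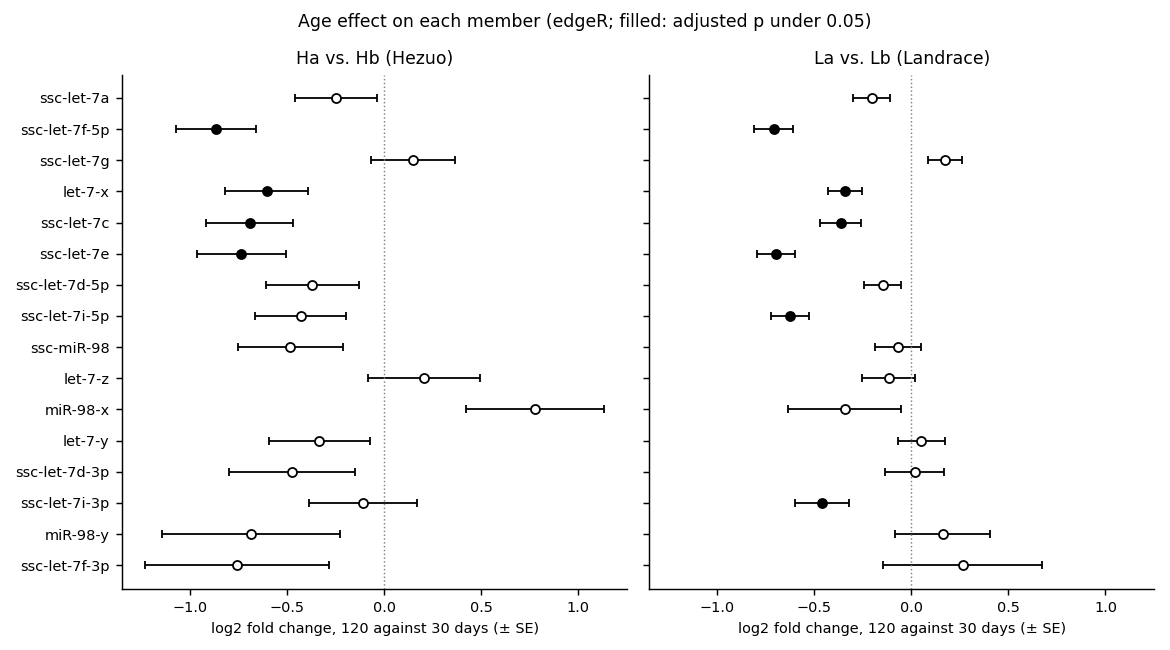
log2 fold change of 120 against 30 days (x axis, with SE) for the 16 members (y axis) in Ha vs. Hb and La vs. Lb, from edgeR. Filled points have an adjusted p under 0.05: 4 in HZ boars and 6 in LC boars, all of them on the negative side.

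The 4 members that fell in Ha vs. Hb were all among the 6 that fell in La vs. Lb, which is 100% of the first list and 66.7% of the second. Of all miRNAs called lower in Ha vs. Hb, 73 of 187 (39.0%) were called lower in La vs. Lb too, which is 37.6% of the 194 called lower there. The test of the difference between the age effects, (Lb minus La) minus (Hb minus Ha) over all 12 libraries, called no member, where 1.38% of the 1452 miRNAs were called. One member, miR-98-x, had an unadjusted p under 0.05 in this test and met the rule of the study's methods, as did 17.1% of all miRNAs, and DESeq2 called it. For ssc-let-7f-5p the difference in log2 fold change was 0.10 (SE 0.196, adjusted p = 0.906) and for ssc-let-7e it was -0.02 (SE 0.212, adjusted p = 0.9999). For ssc-let-7i-5p, called in LC boars and not in HZ boars (log2 fold change -0.43, adjusted p = 0.174, and 0.0419 in the fit of all 12 libraries, which called it), it was -0.25 (SE 0.226, adjusted p = 0.601), so a difference between the breeds was not shown.

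A ratio of 2 members in the same library does not depend on how the library is scaled, and the members were therefore also set against ssc-let-7a, which was chosen after the data were seen. ssc-let-7f-5p had 1.10, 1.05 and 1.14 counts per count of ssc-let-7a in Ha, 0.746, 0.659 and 0.748 in Hb, 0.966, 0.922 and 0.908 in La, and 0.667, 0.687 and 0.616 in Lb. ssc-let-7f-5p thus exceeded ssc-let-7a in the 3 Ha libraries and in no other, and the ages did not overlap in either breed. The log2 ratio differed by -0.62 between the ages of HZ boars and by -0.51 between those of LC boars. ssc-let-7g had 0.250, 0.237 and 0.271 counts per count of ssc-let-7a in Ha, 0.325, 0.341 and 0.328 in Hb, 0.249, 0.208 and 0.229 in La, and 0.319, 0.291 and 0.279 in Lb. It was higher at 120 days without overlap in both breeds, by 0.39 and 0.38 on the log2 scale. ssc-let-7e had a ratio of 0.0605 ± 0.00224 in Ha and 0.0431 ± 0.00243 in Hb, and of 0.0646 ± 0.00855 in La and 0.0457 ± 0.00117 in Lb (SD, n = 3), which was lower by 0.49 at 120 days in each breed.

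Of the 15 members set against ssc-let-7a, 5 were lower in Hb than in Ha without overlap (ssc-let-7f-5p, ssc-let-7c, ssc-let-7e, ssc-let-7f-3p and let-7-x) and 3 were higher (ssc-let-7g, let-7-z and miR-98-x). Of the miRNAs averaging at least 1 TPM, 23.8% were lower relative to ssc-let-7a in Hb and 35.9% higher. In LC boars, 3 were lower in Lb (ssc-let-7f-5p, ssc-let-7e and ssc-let-7i-5p; 18.3% of the same miRNAs) and 1, ssc-let-7g, was higher (39.9%). The members that moved against ssc-let-7a in the same direction in both breeds without overlap were thus ssc-let-7f-5p, ssc-let-7e and ssc-let-7g. ssc-let-7d-5p, whose hairpin neighbours those of ssc-let-7a and ssc-let-7f-5p on chromosome 3, overlapped between the ages in both breeds. Its ratio was 0.0324 ± 0.00233 in Ha and 0.0298 ± 0.00630 in Hb, and 0.0281 ± 0.00348 in La against 0.0291 ± 0.00193 in Lb.

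**Figure D4:**
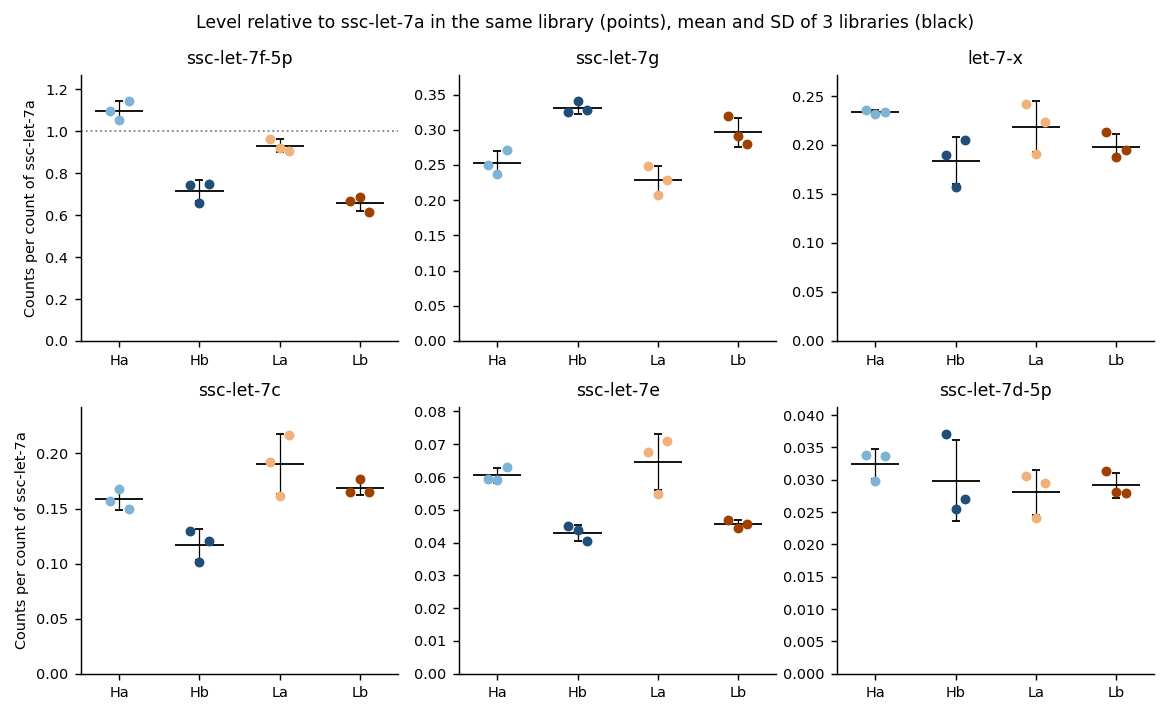
Counts of 6 members per count of ssc-let-7a in the same library (linear axes from 0) in Ha, Hb, La and Lb. Points are libraries, black lines the mean and SD of 3, and the dotted line in the first panel marks equal counts. ssc-let-7f-5p lies above that line in Ha alone, and ssc-let-7g is higher and ssc-let-7e lower at 120 days in both breeds.

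The 3 rows with the let-7i 5p sequence are nested, and the shares of these length forms were computed within each library. The 22-base row let-7-x held from 86.8% to 90.5% of their counts and the 19-base row ssc-let-7i-5p, which lacks the last 3 bases of let-7-x, from 8.78% to 12.1%. The pig-named row is therefore the smaller part of let-7i here. The 24-base row let-7-z, longer by 2 bases at the 3′ end, held 0.515%, 0.491% and 0.499% in Ha and 0.639%, 1.06% and 0.901% in Hb. It held 0.530%, 0.587% and 0.574% in La and 0.693%, 0.706% and 0.608% in Lb. Its share was higher at 120 days without overlap in both breeds, whereas let-7-z itself did not pass the test in either age comparison. Summed, the 3 rows had 11204 ± 415 TPM in Ha and 7031 ± 1879 TPM in Hb, against 10385 ± 743 TPM in La and 9124 ± 553 TPM in Lb (SD, n = 3).

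The 5′-extended row miR-98-x had few counts, from 36 to 91 per library, beside 2582 to 11123 for ssc-miR-98. Its share of both rows was 0.50%, 0.518% and 0.572% in Ha, and 0.779%, 1.75% and 1.57% in Hb. It was 0.482%, 0.661% and 0.822% in La, and 0.439%, 0.629% and 0.577% in Lb. The Hb libraries were above the Ha and Lb libraries, and overlapped with La. ssc-miR-98 had 734, 722 and 660 TPM in Ha, 806, 282 and 395 TPM in Hb, 667, 542 and 579 TPM in La, and 736, 646 and 553 TPM in Lb. The wide range in Hb covered that of the other groups, and the fits with all libraries did not call ssc-miR-98. Without Hb replicate 1 it was called lower in Ha vs. Hb (-0.65, adjusted p = 0.0438).

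**Figure D5:**
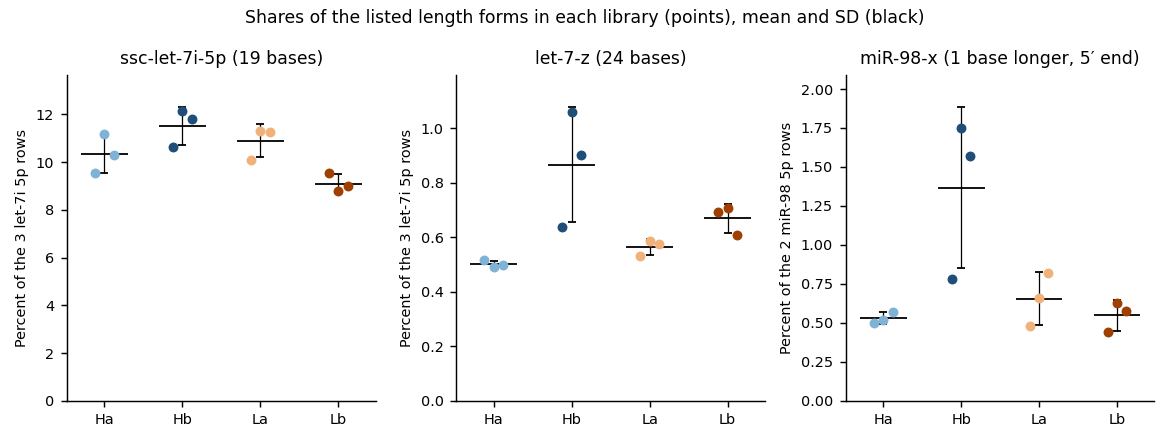
Percent of the counts of nested sequences (linear axes from 0) in each library: the 19-base and 24-base rows among the 3 let-7i 5p rows, and the 5′-extended row among both miR-98 5p rows. Points are libraries and black lines the mean and SD of 3. The shares of let-7-z and miR-98-x are highest in Hb, where they also vary most.

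The 5p row held more counts than the 3p row for each name with both arms listed. There were 13.1 ± 0.605 counts of ssc-let-7d-5p per count of ssc-let-7d-3p in Ha and 15.5 ± 5.54 in Hb, compared with 14.1 ± 1.99 in La and 12.3 ± 0.489 in Lb. For let-7f the 5p arm had from 9946 to 49834 counts per 3p count, which rests on the low counts of ssc-let-7f-3p. Tags of ssc-let-7f-5p can come from MIRLET7F-1 or MIRLET7F-2, so this ratio is not the balance of a single hairpin. The 3p row let-7-y, with 748 to 3505 counts per library, was not matched to a hairpin and is in no arm ratio, so the let-7f ratio covers the ssc-let-7f-3p row alone. The balance of the arms, as log2 of the 5p over the 3p count with 1 added to each, was compared between the ages by an exact two-sided permutation test within breeds (400 arrangements, smallest possible p 0.005). The difference of 120 minus 30 days was 0.00 for let-7d (unadjusted exact p = 0.995), with 0.18 in HZ boars and -0.18 in LC boars, and -0.135 without Hb replicate 2 (exact p = 0.09). It was -0.59 for let-7f (unadjusted exact p = 0.1), with -0.20 in HZ boars and -0.97 in LC boars.

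For ssc-let-7i-5p over ssc-let-7i-3p the arm balance differed by -0.24 between the ages (unadjusted exact p = 0.02), with -0.31 in HZ boars and -0.17 in LC boars. When the 3 let-7i 5p rows were summed, a choice made after the data were seen, the difference was -0.19 (unadjusted exact p = 0.105), with -0.46 in HZ boars and 0.09 in LC boars, so the result for the 19-base row did not hold for the whole strand. The summed 5p strand had 231, 232 and 210 counts per 3p count in Ha and 167, 178 and 146 in Hb, and 203, 204 and 211 in La and 222, 219 and 218 in Lb. The ages did not overlap in either breed, and the ratio was lower at 120 days in HZ boars and higher in LC boars. For ssc-miR-98 over miR-98-y, also added after the data were seen, the difference was 0.08 (unadjusted exact p = 0.955), with 0.43 in HZ boars and -0.27 in LC boars, and -0.167 without Hb replicate 2 (exact p = 0.1).

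Between the breeds at 30 days (Ha vs. La) no member was called by edgeR's adjusted p, where 11.3% of the 1278 miRNAs tested were, and none met the rule of the study's methods, which 9.47% did. At an unadjusted p under 0.05 there were 2, ssc-let-7c and miR-98-y, and DESeq2 called 0. ssc-let-7c came closest, with 6740, 7422 and 6141 TPM in Ha and 7992, 7461 and 8489 TPM in La (log2 fold change 0.32, SE 0.101, adjusted p = 0.0517). The breeds did not overlap, and its adjusted p ranged from 0.0259 to 0.359 over the alternatives. Without overlap in TPM, 5 members were lower in La (21.8% of miRNAs averaging at least 1 TPM) and 1 was higher (13.0%). Relative to ssc-let-7a, ssc-let-7f-5p was lower in La than in Ha by 0.24 on the log2 scale without overlap, as was miR-98-y, where 18.9% of the same miRNAs were, and no member was higher (10.1%).

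Between the breeds at 120 days (Hb vs. Lb) no member was called by edgeR's adjusted p either, where 3.25% of the 1444 miRNAs tested were. At an unadjusted p under 0.05 there were 2, ssc-let-7c and miR-98-x, and DESeq2 called 0. ssc-let-7c had 5272, 2804 and 3793 TPM in Hb and 6790, 7387 and 6877 TPM in Lb (log2 fold change 0.55, SE 0.248, adjusted p = 0.220). miR-98-x had 6.33, 5.02 and 6.31 TPM in Hb and 3.24, 4.09 and 3.21 TPM in Lb (log2 fold change -1.08, SE 0.377, adjusted p = 0.123). Neither overlapped between the breeds, and miR-98-x was the single member that met the rule of the study's methods, where 16.8% of all miRNAs did. In TPM, 5 members were higher in Lb without overlap (24.1% of miRNAs averaging at least 1 TPM) and 1 was lower (9.94%). Against ssc-let-7a, ssc-let-7c (by 0.54 on the log2 scale) and let-7-y were higher in Lb without overlap (15.6%), and ssc-let-7g (by 0.16) and miR-98-x were lower (16.8%).

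The miR-99, miR-100 and miR-125 miRNAs whose hairpins neighbour let-7 hairpins had 6 pig-named rows, of which 2 fell and 1 rose in Ha vs. Hb and 4 fell and 1 rose in La vs. Lb, beside the 34.3% and 40.2% of all miRNAs called. Of the 9 rows of these miRNAs named without a species, 2 fell and 0 rose in Ha vs. Hb, whereas 5 fell and 2 rose in La vs. Lb. Of all miRNAs tested, 13.0% were called lower and 21.3% higher in Ha vs. Hb, and 13.4% lower and 26.8% higher in La vs. Lb. ssc-miR-100, the neighbour of MIRLET7A-1 on chromosome 9, had 8654, 10232 and 10556 TPM in Ha, 23096, 39009 and 23669 TPM in Hb, 7664, 8730 and 8721 TPM in La, and 20768, 20337 and 21484 TPM in Lb. It rose in both breeds, with log2 fold changes of 1.78 (adjusted p = 0.00136) and 1.14 (adjusted p = 2.61e-06). ssc-miR-125a, the neighbour of MIRLET7E, fell by 1.17 in HZ boars (adjusted p = 0.00236) and by 0.94 in LC boars (adjusted p = 2.12e-05) on the log2 scale, while ssc-miR-99b on the other side of MIRLET7E did not pass the test in either (-0.23 and -0.12). ssc-miR-125b fell by 0.89 (adjusted p = 0.0128) and by 0.73 (adjusted p = 0.000295). ssc-miR-99a-5p, the neighbour of MIRLET7C, fell in La vs. Lb (-0.52, adjusted p = 0.00182) and not in Ha vs. Hb (0.48, adjusted p = 0.302), where Hb replicate 2 had 145668 TPM beside 77318 and 76247 TPM in the other Hb libraries. ssc-miR-99a-3p fell in La vs. Lb (-0.61, adjusted p = 0.00534) and did not pass the test in Ha vs. Hb (-0.57, adjusted p = 0.135).

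Summed levels of rows that mark other cells are given beside the age comparisons, without a test. The miR-34c and miR-449 rows, which mark meiotic and haploid germ cells (4 rows, 3 of them counted in all 12 libraries), summed to 23.5 to 76.9 TPM in Ha and 2580 to 13177 TPM in Hb, and to 16.6 to 24.6 TPM in La and 11279 to 13895 TPM in Lb. The 9 striated muscle rows summed to 131.8 to 283.2 TPM in Ha and 452.9 to 743.6 in Hb, and to 108.1 to 202.3 in La and 696.7 to 840.0 in Lb. Erythroid rows (10) summed to 1357 to 1768 TPM in Ha and 863 to 2298 in Hb, 2201 to 2468 in La and 1220 to 1272 in Lb. Leukocyte rows (9) summed to 1040 to 1087 TPM in Ha and 417 to 869 in Hb, 1300 to 1441 in La and 759 to 1177 in Lb, lower at 120 days without overlap in both breeds. Erythroid rows overlapped between the ages in HZ boars. Epithelial rows (6) overlapped in both breeds, with 82.6 to 98.03 TPM in Ha and 32.6 to 107.4 in Hb, and 64.0 to 91.5 in La and 60.5 to 167.7 in Lb. Gonadal miR-202 rows were lower in Hb (9608 to 17266 TPM) than in Ha (18675 to 21867) and higher in Lb (17966 to 24405) than in La (15272 to 17278), without overlap. The part of these cells in the lower let-7 levels at 120 days was not tested, and in whole testis fewer cells of a type and less RNA per cell cannot be told apart.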

How the data were processed

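Small RNA (18 to 30 bases by the methods) was sequenced from 12 testis libraries. The authors filtered reads with fastp, removed other non-coding RNAs and fragments of exons, introns and repeats of Sscrofa11.1, and matched tags to miRBase with bowtie. The authors deposited raw tag counts per miRNA and library, without normalization. The deposited TPM are, by the methods, these counts divided by the library's clean tags, scaled as the unit implies and not divided by length. In each group, however, the totals implied by the deposited counts and TPM are below the clean tags that the paper gives. The separate table of predicted hairpins was not used here, while the 332 predicted miRNAs in the count table stayed in the fits and backgrounds.

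Counts were tested with edgeR 4.0.16 (R 4.3.3, TMM, glmQLFit and glmQLFTest, not robust) in a fit per comparison over all miRNAs with at least 1 count, with Benjamini-Hochberg adjustment over all of them. Fold changes give the second group over the first. The test was tested on simulated data. DESeq2 1.42.0, RLE and library-size scaling, filterByExpr, merged identical sequences, 1 fit of all 12 libraries, a replicate block and leaving out each library were the alternatives. Listed sequences, seeds and substitutions were compared in Python 3.11.15. Every member is named, with the rows that share the seed, the miR-99, miR-100 and miR-125 neighbours, and the 3 miRNAs most like the most abundant member. Arm p-values were not adjusted over the hairpins, since the hairpins form the family itself. Precursor sequences were not analysed here. The members and lists were chosen with earlier results of these data known.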

Additional observations from a re-analysis of the deposited data

Results flagged for a closer look

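The age effect on miR-98-x, the 5′-extended miR-98 row, differed between the breeds at an unadjusted p under 0.05. Its log2 fold change was 0.78 in HZ boars and -0.34 in LC boars, and the interaction was -1.17 (SE 0.410, unadjusted p = 0.0117, adjusted p = 0.119 in edgeR's quasi-likelihood test), which fails the correction over all miRNAs. All 3 Hb libraries were above all 3 Ha libraries, while La and Lb overlapped. DESeq2 gave -1.27 with an adjusted p of 0.0374. The row had between 36 and 91 counts per library.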

How the results depend on the processing

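In Ha vs. Hb, the number of members called (4) was 1 with RLE normalization, 2 with scaling by library size, 2 with the replicate block, 0 by the rule of the study's methods, and from 0 to 6 when a library was left out. In La vs. Lb (6) it was 0 by that rule, 5 with the replicate block, 4 with scaling by library size (3 lower and ssc-let-7g higher), and from 4 to 7 when a library was left out. In Ha vs. La (0) it was 1 with RLE normalization and from 0 to 1 when a library was left out. In Hb vs. Lb (0) it was 2 in the fit of all 12 libraries and 1 by that rule, and for the interaction (0) it was 1 with DESeq2 and 1 by that rule. The block lost ssc-let-7c (adjusted p = 0.0511) and let-7-x (adjusted p = 0.0702) in Ha vs. Hb and ssc-let-7i-3p (adjusted p = 0.0510) in La vs. Lb. It changed no other call count. Same-numbered libraries correlated from -0.242 to 0.168 in their deviations from the group means, and in no comparison was every pair above 0.1. With 3 libraries per group, these correlations cannot decide whether the numbers mark a shared batch, and the labels do not say. The summed family ratio of Lb over La was 0.751 and that of La over Ha 0.988 after TMM scaling.

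Signs turned for members that were not called, among them the following. With scaling by library size in La vs. Lb these were ssc-let-7a (0.0078), ssc-let-7d-5p (0.068), ssc-miR-98 (0.149) and let-7-z (0.0997), and in Hb vs. Lb ssc-let-7f-5p (0.193), ssc-let-7g (0.176), ssc-let-7d-5p (0.255), ssc-let-7i-5p (0.0678) and let-7-z (0.0781). ssc-let-7d-3p in La vs. Lb was -0.0136 with RLE normalization, -0.0139 with DESeq2 and -0.0334 in the fit of all 12 libraries, where let-7-y was -0.00297. When a library was left out, ssc-let-7i-3p in Ha vs. Hb ranged from -0.233 to 0.0353. In La vs. Lb, ssc-miR-98 ranged from -0.169 to 0.0664, ssc-let-7d-3p from -0.121 to 0.102, let-7-y from -0.0418 to 0.122 and miR-98-y from -0.0438 to 0.354. In Ha vs. La, miR-98-x ranged from -0.0455 to 0.285, and in Hb vs. Lb miR-98-y from -0.0859 to 0.860.

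The arm balance difference ranged from -0.135 to 0.0984 for let-7d when a library was left out, from -0.784 to -0.386 for let-7f (exact p = 0.04 without Lb replicate 2), and from -0.167 to 0.215 for miR-98. The causes of these changes were not tested. Scaling moved the median log2 fold change of all miRNAs to 0.54 in La vs. Lb, so members near 0 have no settled direction. The 3 libraries per group and the low counts of ssc-let-7f-3p, miR-98-x and miR-98-y limit the precision, and counting error is not the only error.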

Other observations

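The seed GAGGTAG also occurred in 5 rows that carry no let-7 or miR-98 name: miR-5991-z, miR-3970-z, miR-6134-z, miR-8549-z and miR-2288-z. All were near 1 TPM or below on average in most groups, with the highest group mean in miR-5991-z (2.50 ± 1.42 TPM in Hb, SD, n = 3). miR-6134-z had 0.277, 0.102 and 0.278 TPM in Ha and 0.943, 1.74 and 1.29 TPM in Hb, and rose in Ha vs. Hb with a log2 fold change of 2.73 (adjusted p = 0.00922 in edgeR's quasi-likelihood test). In La vs. Lb its log2 fold change was -0.91 (adjusted p = 0.204), and the interaction was -3.70 (adjusted p = 0.0476). miR-6134-z had 85 counts in all over the 12 libraries, and the first 17 of its 19 bases are those of ssc-let-7a. Likewise, miR-8549-z begins with 18 bases of ssc-let-7a. The 5 rows had from 12 to 174 counts each in all. Whether their tags are altered tags of let-7 members was not tested. These rows add under 10 TPM to the family sum in each library.

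Among the 203 miRNAs outside the family with a mean of at least 100 TPM, those whose pattern over the 12 libraries was nearest to that of ssc-let-7a were ssc-miR-374a-3p, miR-152-y and ssc-miR-30e-5p. The measure was the root mean square difference of log2(TPM + 1) after centring each miRNA on its mean, and it was 0.111, 0.120 and 0.139, beside a median of 0.443 over the 203. By the same measure ssc-let-7d-5p (0.171) and let-7-x (0.176) were the members nearest to ssc-let-7a, and ssc-let-7f-5p was at 0.303. The nearest to ssc-let-7f-5p outside the family were ssc-miR-425-3p (0.144), ssc-miR-28-3p (0.175) and ssc-miR-361-5p (0.184), and the nearest member was ssc-let-7e (0.179). The points share libraries and depth.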
